A study of Meriones unguiculatus with 18 samples.

Results

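Leukocyte surface, cytokine, chemokine, tumour necrosis factor (TNF) family, interferon and major histocompatibility complex (MHC) genes were followed in the livers of male Mongolian gerbils (Meriones unguiculatus) kept on a normal or a high-fat diet. They were chosen by name, through a fixed pattern of name stems that leaves out 5 names, with earlier results of these data known. The transcript with the highest mean was kept for each name. Of 13172 assembled transcripts (unigenes), 3767 carried a name, 91 matched the pattern, 5 were left out and 7 were lower transcripts of a name already held, which left 79 genes. They comprised 20 surface and adhesion genes, 9 chemokines and chemokine receptors, 15 interleukins and cytokine receptors, 13 TNF family genes, 8 sensors and transcription factors, 7 interferon-induced genes and 7 MHC genes. Names come from the best match in another species, so mouse-style and human-style spellings occur side by side; 56 of the 79 symbols are also found in the gerbil annotation and 23 are not. The name LCP17 is that of a larval cuticle protein of insects and entered through its stem.

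The groups were normal diet (ND) for 4 weeks, high-fat diet (HFD) for 4 weeks, ND for 16 weeks and HFD for 16 weeks, with 3 libraries each, 12 in all. Per the labels, HFD contained ordinary feed (80.5%), egg yolk powder (10%), lard bile (7%), cholesterol (2%) and a bile salt (0.5%), and ND animals ate ordinary feed. A further label common to all samples reads Z:ZCAL; neither labels nor design text give the starting age. The treatment text speaks of 36 gerbils with 6 per group and the design text of 18 with 3 per group, so a library may hold 1 animal or a pool, and p-values measure the spread between libraries. Libraries of 8 weeks were left out of the rule, because their correlation with the other libraries across transcripts was 0.00114 to 0.032 over 72 pairs, against 0.771 to 0.858 for the 12 pairs within a group at 4 and 16 weeks.

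The liver holds resident macrophages, lymphocytes, dendritic cells and natural killer cells beside its hepatocytes, and more leukocytes enter it in fatty liver disease. Colony-stimulating factors, interleukins, chemokines and TNF family ligands act on surface receptors, which signal through JAK and STAT proteins or through NF-kB. Interferons act through STAT and IRF factors to raise guanylate-binding proteins, ubiquitin-like Isg15 and the MHC proteins that display peptides to T cells.

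The deposited values were quantile-normalized, so every library shared nearly the same sorted values (column sums 157561 to 157999) and its sequencing depth is unknown. Each library had a lowest value shared by many transcripts, and a transcript there is called not detected. That lowest value lay between 0.0236 and 0.141 in ND libraries, where 3910 to 5273 transcripts sat at it, and was 0 in HFD libraries, with 2053 to 3012 transcripts. Of the 79 genes, 58 to 63 were detected in an ND library and 64 to 69 in an HFD library, and diet and this difference between the 2 kinds of library cannot be told apart. Within HFD, the libraries numbered 1 at 4 and 16 weeks also detected other transcripts than those numbered 2 and 3. Of all named transcripts, 5.26% were found in the 4 HFD libraries numbered 2 and 3 alone, and 2.73% in the 2 numbered 1 alone. Of 10 hepatocyte markers 4 were measured and detected in every library, and Cps1 was called lower on HFD at 16 weeks (-1.22, adjusted p = 0.02). ALB, Apob and Tat were called at neither time. Their log2 fold changes at 16 weeks were -1.38, 0.05 and -1.33, with adjusted p-values of 0.574, 0.935 and 0.116. Of 13 macrophage markers 3 were measured, and Cd68, the 1 detected in all 12 libraries, read 8.78 to 9.07 on ND and 35.1 to 54.3 on HFD at 4 weeks and 10.7 to 11.7 on ND and 168 to 318 on HFD at 16 weeks. Of the other macrophage markers, C1qc had a mean of 0.44 on ND and 0.0607 on HFD at 4 weeks and of 2.34 on ND at 16 weeks, with 0 of 3 HFD libraries detected, and CD163 was found in the 2 HFD libraries numbered 1 alone. The sum of the 3 was 8.88 to 10.4 on ND and 41.6 to 54.3 on HFD at 4 weeks, and 11.8 to 14.8 and 173 to 318 at 16 weeks. Of 13 T-cell and natural killer markers 3 were measured, CD2, PRF1 and Cd4, with a sum of 5.93 to 12.0 on ND and 1.53 to 3.45 on HFD at 4 weeks, and 2.60 to 8.33 and 0.318 to 3.36 at 16 weeks. CD2 and PRF1 were detected in ND libraries only, whereas the mean of Cd4 was 0.861 on ND and 2.65 on HFD at 4 weeks and 0.577 and 2.25 at 16 weeks. Of 8 markers of stellate cells, the collagen-forming cells of the liver, 4 were measured, and their sum was 26.0 to 28.7 on ND and 54.6 to 75.5 on HFD at 4 weeks and 21.2 to 27.996 on ND and 621 to 1370 on HFD at 16 weeks. Called higher were 2 of the 4 at 4 weeks and all 4 at 16 weeks, with Col1a1 at 7.52 and Des at 5.47 on the log2 scale at the later time. Hba, of red blood cells, was also called higher at 16 weeks (1.90, adjusted p = 0.0365). The part of these markers in the results below was not tested; in bulk tissue, fewer cells of a type and less RNA per cell cannot be told apart.

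Of the 79 genes, 60 had a mean of at least 1 over the 12 libraries and entered the limma fit of log2(value + 1) over all 9487 such transcripts; 19 did not. A gene was called when its Benjamini-Hochberg adjusted p over all of those transcripts was under 0.05. At 4 weeks 20 of the 60 were called, 14 higher and 6 lower on HFD (33.3%), against 12.1% of all transcripts tested, 4.89% higher and 7.22% lower. At 16 weeks 30 were called, 22 higher and 8 lower (50%), against 35.2% of all transcripts, 15.3% higher and 19.9% lower. Among the 39 tested genes detected in all 12 libraries, 11 were called higher and 0 lower at 4 weeks (28.2%), beside 7.23% and 9.03% of all such transcripts. At 16 weeks 14 of them were called higher and 3 lower (43.6%), beside 22.2% and 27%, which together exceed that share. Without a filter on level, the median log2 fold change of the 79 genes was 0.21 at 4 weeks and 0.66 at 16 weeks, against -0.01 and 0.07 for all transcripts. That of the 41 genes detected in all 12 libraries was 0.24 and 0.56, against -0.15 and -0.14. The 3 HFD libraries lay wholly above the ND libraries for 22 tested genes and wholly below for 9 at 4 weeks, beside 11.9% and 19.2% of all transcripts, and for 24 and 14 at 16 weeks, beside 20.4% and 28.2%. Genes missing from some libraries made up 3 of the 14 higher and all 6 lower calls at 4 weeks. They made up 8 of the 22 higher and 5 of the 8 lower calls at 16 weeks. Of the 21 such genes tested, 42.9% were called at 4 weeks and 61.9% at 16 weeks. Such a gene can reach the mean of at least 1 through the diet where it is high. Its call then restates detection and is no separate support. Between times, 13 genes were called higher at both and 4 lower at both, where 8.19% of all transcripts were called with the same sign at both times; 0 were called in opposite directions (0.253% of all transcripts), and 27 of the tested genes were called at neither time. The shares of all transcripts given above are the background of the counts by role that follow. Values below are given in the order of replicates 1, 2 and 3. Fold changes are differences of log2(value + 1), so those of weakly expressed genes come out smaller than the ratio of their values.

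**Figure D1:**
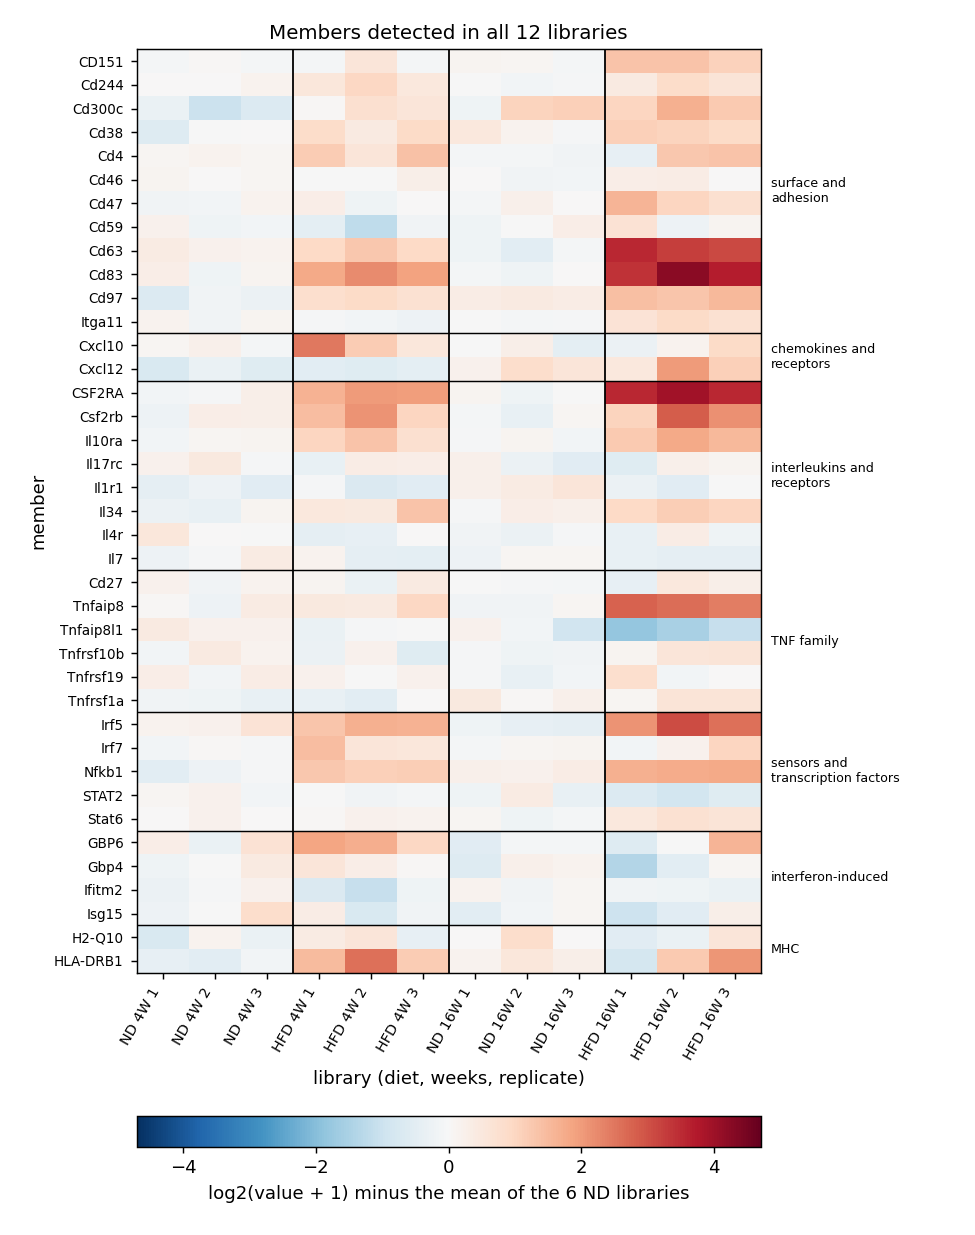
Levels of 39 of the 41 genes detected in all 12 libraries, as log2(value + 1) minus the mean of the 6 ND libraries, with genes on the vertical axis grouped by role and libraries on the horizontal axis. The deepest red cells are Cd63, Cd83 and CSF2RA in the 3 HFD libraries of 16 weeks, and the blue cells of Tnfaip8l1 in the same libraries mark lower levels.

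Of the 15 surface and adhesion genes tested, 4 were called higher on HFD at 4 weeks and 7 at 16 weeks, beside 4.89% and 15.3% of all transcripts. At either time 0 were called lower, and 11 and 8 were not called. Cd63, a tetraspanin of late endosomes and lysosomes, read 134, 119 and 115 on ND and 197, 246 and 194 on HFD at 4 weeks. At 16 weeks it read 89.6, 71.8 and 95.9 on ND and 1189, 991 and 875 on HFD. Every HFD library lay above every ND library of its time, and the HFD libraries of 16 weeks stood far above all the others. Its log2 fold change was 0.78 (SE 0.19, adjusted p = 0.0178) at 4 weeks and 3.55 (SE 0.19, adjusted p = 2.83e-07) at 16 weeks. Cd83, a surface marker of mature dendritic cells, read 1.28, 0.627 and 1.04 on ND and 5.29, 7.60 and 5.92 on HFD at 4 weeks. At 16 weeks the values were 0.721, 0.626 and 0.878 on ND and 18.6, 33.6 and 22.6 on HFD. The groups did not overlap, and the log2 fold change was 1.88 (SE 0.24, adjusted p = 0.000579) at 4 weeks and 3.86 (SE 0.24, adjusted p = 1.08e-06) at 16 weeks. Of 6 dendritic-cell markers 1 was measured, Itgax, a name left out of the pattern. Itgax read 3.16 to 4.66 on HFD at 4 weeks and 29.0 to 31.7 at 16 weeks, against 0.640 to 1.34 in the ND libraries. Of 4 monocyte markers 1 was measured, Plac8, which was not called (adjusted p = 0.256 at 4 weeks and 0.693 at 16 weeks). Of 7 neutrophil markers 1 was measured, S100a8, also not called (0.859 and 0.18). Of 6 B-cell and plasma-cell markers 0 were measured.

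Cd97, an adhesion receptor of leukocytes, read 14.02, 19.8 and 18.3 on ND and 39.2, 42.3 and 38.1 on HFD at 4 weeks. The values at 16 weeks were 29.1, 30.4 and 28.8 on ND and 61.5, 57.6 and 67.1 on HFD. It was higher on HFD by nearly the same step at both times, 1.17 (SE 0.14, adjusted p = 0.000355) and 1.05 (SE 0.14, adjusted p = 0.000166) on the log2 scale, with no overlap. Cd38, an enzyme of the cell surface that consumes NAD, read 1.32, 2.57 and 2.65 on ND and 5.50, 3.74 and 5.67 on HFD at 4 weeks. By 16 weeks the libraries gave 4.03, 3.02 and 2.43 on ND and 6.75, 6.33 and 5.64 on HFD. The groups did not overlap at either time, and the log2 fold change was 0.92 (SE 0.24, adjusted p = 0.0287) and 0.81 (SE 0.24, adjusted p = 0.0212). The Cd38 calls rest on few libraries: the adjusted p at 4 weeks was 0.101 without ND replicate 1, 0.0747 without HFD replicate 1 and 0.103 without HFD replicate 3. At 16 weeks it was 0.0552 without ND replicate 2, 0.0804 without ND replicate 3, 0.0644 without HFD replicate 1 and 0.0604 without HFD replicate 2. Over all alternatives it ranged from 0.0116 to 0.103 at 4 weeks and from 0.00721 to 0.0804 at 16 weeks. The Cd63 call at 4 weeks was likewise lost without ND replicate 2 (adjusted p = 0.0502), ND replicate 3 (0.0638) or HFD replicate 2 (0.0715), within a range of 0.00549 to 0.0715.

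A further 3 surface genes were called at 16 weeks alone. CD151, a tetraspanin that binds laminin-binding integrins, read 35.8, 40.2 and 36.5 on ND and 36.0, 57.1 and 35.8 on HFD at 4 weeks. After 16 weeks it read 42.0, 41.3 and 36.1 on ND and 98.2, 99.8 and 82.2 on HFD. Its libraries overlapped at 4 weeks and were apart at 16 weeks, with a log2 fold change of 1.21 (SE 0.18, adjusted p = 0.000365) at the later time. Cd47, the surface signal that restrains phagocytosis, read 16.6, 17.1 and 21.0 on ND and 23.3, 16.0 and 19.0 on HFD at 4 weeks. Its values at 16 weeks were 17.4, 22.1 and 19.1 on ND and 58.5, 38.6 and 32.6 on HFD, and the log2 fold change there was 1.07 (SE 0.21, adjusted p = 0.00232). ITGA8, an integrin chain that pairs with the beta-1 chain, was detected in 1 of 3 HFD libraries at 4 weeks (0.718) and in 0 of 3 ND libraries. By 16 weeks it was detected in 1 of 3 ND libraries (1.16) and in all 3 HFD libraries at 4.25, 3.32 and 6.43. Its log2 fold change at 16 weeks was 2.04 (SE 0.40, adjusted p = 0.00209). The other 8 tested surface genes were called at neither time. Cd300c, an activating receptor of myeloid cells, read 3.43, 1.76 and 2.56 on ND and 4.79, 8.29 and 7.18 on HFD at 4 weeks, apart but not called (1.11, SE 0.35, adjusted p = 0.0613). Cd244, a receptor of natural killer cells, lay at 0.654 to 1.07 in the 6 ND libraries and at 1.48 to 2.58 in the 6 HFD libraries, with an adjusted p of 0.177 at 4 weeks and 0.0562 at 16 weeks. Cd4, the coreceptor of helper T cells, read 0.837, 0.918 and 0.829 on ND and 2.96, 1.53 and 3.45 on HFD at 4 weeks. At 16 weeks it read 0.599, 0.599 and 0.532 on ND and 0.318, 3.08 and 3.36 on HFD. It was apart at 4 weeks and overlapped at 16 weeks through HFD replicate 1; the log2 fold change there was 0.86 (SE 0.43, adjusted p = 0.147) and became 1.42 (adjusted p = 0.00803) without that library. The lymphocyte antigen Cd52 likewise passed the threshold at 16 weeks without HFD replicate 1, with an adjusted p of 0.0366 in place of 0.168. Cd46 and Cd59, which protect cells from complement, had log2 fold changes of -0.02 and -0.57 at 4 weeks and 0.32 and 0.16 at 16 weeks.

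Receptors of granulocyte-macrophage colony-stimulating factor rose. CSF2RA, its specific alpha chain, read 3.70, 3.91 and 5.14 on ND and 14.9, 19.4 and 19.2 on HFD at 4 weeks. At 16 weeks the values were 4.59, 3.45 and 4.11 on ND and 59.1, 78.3 and 59.2 on HFD. The diets did not overlap, and the log2 fold change was 1.84 (SE 0.18, adjusted p = 0.000102) at 4 weeks and 3.71 (SE 0.18, adjusted p = 1.68e-07) at 16 weeks. Csf2rb, the signalling chain shared with the receptors of IL-3 and IL-5, read 9.34, 14.2 and 13.8 on ND and 32.2, 51.7 and 23.3 on HFD at 4 weeks. The values at 16 weeks were 10.5, 8.51 and 12.0 on ND and 24.5, 86.5 and 52.7 on HFD. It did not overlap either, but its HFD libraries spread widely, and its log2 fold change of 1.39 (SE 0.40, adjusted p = 0.0412) at 4 weeks was lost in 12 of 24 alternatives, with an adjusted p of 0.0121 to 0.141 over them. The adjusted p was 0.133 without ND 4W replicate 1, 0.0709 without ND 4W replicate 2, 0.0792 without ND 4W replicate 3, 0.0693 without HFD 4W replicate 1 and 0.141 without HFD 4W replicate 2. It was also 0.0564, 0.0539 and 0.0547 without ND 16W replicates 1, 2 and 3 and 0.0535 without HFD 16W replicate 3, libraries that enter through the estimate of spread shared by all groups. At 16 weeks the Csf2rb fold change was 2.13 (SE 0.40, adjusted p = 0.00158) and was called under every alternative that gave a value.

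Interleukins and their receptors went both ways: of the 12 genes of this role tested, which include CSF2RA and Csf2rb, 4 were called higher and 3 lower at each time. Il10ra, a chain of the receptor for the anti-inflammatory IL-10, read 1.26, 1.62 and 1.68 on ND and 3.94, 5.27 and 3.21 on HFD at 4 weeks. By 16 weeks the libraries gave 1.37, 1.69 and 1.28 on ND and 4.80, 7.53 and 6.13 on HFD. The diets were apart at both times, with log2 fold changes of 1.01 (SE 0.23, adjusted p = 0.0144) and 1.53 (SE 0.23, adjusted p = 0.000418). Il34, an alternative ligand of the macrophage colony-stimulating factor receptor, read 2.71, 2.48 and 3.88 on ND and 5.37, 5.11 and 10.2 on HFD at 4 weeks. After 16 weeks it read 3.25, 4.60 and 4.33 on ND and 7.64, 8.90 and 7.98 on HFD. It was apart at both times, by 0.93 (SE 0.25, adjusted p = 0.0309) and 0.87 (SE 0.25, adjusted p = 0.0177) on the log2 scale. The Il10ra call at 4 weeks was lost without ND replicate 1 (adjusted p = 0.054) or HFD replicate 2 (0.0609). It was also lost in a fit of each time alone (0.0566), within a range of 0.005 to 0.0609. The Il34 call at 4 weeks was lost without ND replicate 1 (0.0913), ND replicate 2 (0.0906) or HFD replicate 3 (0.106). It was also lost without the trend (0.0573) or in a fit of each time alone (0.0982), within 0.0163 to 0.106. The Il34 call at 16 weeks was lost without ND replicate 1 (0.0629) or HFD replicate 2 (0.0609), within 0.00634 to 0.0629.

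Il1r1, the signalling receptor of IL-1, was lower on HFD at 16 weeks alone. It read 36.0, 40.5 and 32.9 on ND and 46.0, 29.8 and 33.3 on HFD at 4 weeks. Its values at 16 weeks were 57.6, 64.2 and 72.6 on ND and 40.2, 33.4 and 47.3 on HFD. The groups overlapped at 4 weeks and not at 16 weeks, where the log2 fold change was -0.68 (SE 0.18, adjusted p = 0.0135). That call was lost without ND 16W replicate 3 (adjusted p = 0.0542) or HFD 16W replicate 2 (0.0543), within a range of 0.00745 to 0.0543. The other lower calls were of genes found in ND libraries only and are described below with the other partly detected genes. Il4r, Il7 and Il17rc were detected in all 12 libraries and called at neither time, with log2 fold changes of -0.44, -0.26 and -0.10 at 4 weeks and 0.10, -0.38 and 0.13 at 16 weeks. At 16 weeks the diets overlapped for Il4r and Il17rc. Il13ra2, a decoy receptor of IL-13, was detected in 2 of 3 ND libraries at 4 weeks at 2.44 and 1.77 and in the HFD libraries at 2.42, 1.47 and 3.56. By 16 weeks it read 1.44, 1.24 and 1.80 on ND and 0.109, 0.118 and 0.132 on HFD. The diets were apart at 16 weeks, with a log2 fold change of -1.15 (SE 0.42) and an adjusted p of 0.0519. Il13ra2 was called lower there with values summed by name (-1.36, adjusted p = 0.00238), at a pseudocount of 0.1 (0.0244) or without the trend (0.0429). It was also called without ND 4W replicates 1 or 3 (0.0434 and 0.0146).

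Among chemokines, Ccl20, the ligand of CCR6, was called higher at both times. It was detected in 1 of 3 ND libraries at each time, at 1.001 and 0.612, and in every HFD library, at 3.17, 2.83 and 7.81 at 4 weeks and 2.68, 4.18 and 8.54 at 16 weeks. The diets did not overlap, and the log2 fold change was 1.97 (SE 0.45, adjusted p = 0.0144) at 4 weeks and 2.22 (SE 0.45, adjusted p = 0.00261) at 16 weeks. The call at 4 weeks was lost without ND 4W replicate 1 (adjusted p = 0.0525) or HFD 4W replicate 3 (0.0657), within a range of 0.00977 to 0.0657. Ccl6, a chemokine of rodents made by myeloid cells, was detected in 2 of 3 ND libraries (0.529 and 1.21) and all HFD libraries (0.509, 1.38 and 1.001) at 4 weeks. At the later time it was found in 0 of 3 ND libraries and in all HFD libraries at 6.22, 2.20 and 3.60. It was called higher at 16 weeks (adjusted p = 0.00118), and no fold is given because ND was at the lowest value. Cxcl12, which retains leukocytes and their precursors in tissue, read 40.8, 63.7 and 52.0 on ND and 49.6, 145 and 77.5 on HFD at 16 weeks, overlapping because of HFD replicate 1, and was not called (0.67, SE 0.31, adjusted p = 0.112). Without that library its log2 fold change was 1.03 with an adjusted p of 0.013.

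Of the 9 TNF family genes tested, 1 was called at 4 weeks (11.1%, near the 12.1% of all transcripts) and 5 at 16 weeks (55.6%, beside 35.2%), 4 of them higher. Tnfaip2, a gene induced by TNF, was detected in 2 of 3 ND libraries at 4 weeks (0.930 and 2.06) and read 5.64, 9.58 and 8.37 on HFD. At 16 weeks Tnfaip2 read 2.11, 1.68 and 1.71 on ND and 19.8, 32.0 and 38.3 on HFD. The diets were apart at both times, with log2 fold changes of 2.22 (SE 0.35, adjusted p = 0.00199) and 3.41 (SE 0.35, adjusted p = 3.24e-05). Tnfaip8, the founding member of a family of lipid-binding regulators of cell death and inflammation, read 1.43, 0.998 and 2.08 on ND and 2.20, 2.11 and 3.62 on HFD at 4 weeks. It read, at 16 weeks, 1.07, 1.10 and 1.498 on ND and 15.1, 13.4 and 11.3 on HFD. All HFD libraries lay above the ND libraries at both times, and the change was called at 16 weeks (2.68, SE 0.24, adjusted p = 1.38e-05) and not at 4 weeks (0.54, SE 0.24, adjusted p = 0.174). Its relative Tnfaip8l1 went the other way, reading 11.2, 9.46 and 9.44 on ND and 6.43, 7.74 and 8.05 on HFD at 4 weeks. At 16 weeks the values were 9.49, 7.45 and 3.90 on ND and 1.59, 2.17 and 3.26 on HFD. The log2 fold change of Tnfaip8l1 was -0.39 (SE 0.27, adjusted p = 0.396) and -1.21 (SE 0.27, adjusted p = 0.00501), and the diets were apart at both times.

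Tnfrsf12a, the receptor of the TNF-related ligand TWEAK, was detected in 1 of 3 ND libraries at 4 weeks (0.770), where HFD read 0.686, 0.371 and 0.394. It was detected in 2 of 3 ND libraries at 16 weeks (0.812 and 0.898), where HFD read 2.98, 2.87 and 2.09. It was called higher at 16 weeks (1.24, SE 0.36, adjusted p = 0.0185), with no overlap. The call was lost without ND 16W replicate 3 (adjusted p = 0.0727) or at a pseudocount of 0.1 (0.0707), within a range of 0.0081 to 0.0727. Tnfrsf18, a costimulatory receptor of T cells, read 0.631, 0.712 and 0.983 on ND and 1.80, 7.46 and 2.09 on HFD at 16 weeks, with a log2 fold change of 1.24 (SE 0.43, adjusted p = 0.0436). That call was lost without ND 16W replicate 1 (0.101), 2 (0.095) or 3 (0.0729) and without HFD 16W replicate 2 (0.196). It was lost as well without ND 4W replicate 2 (0.0525) or HFD 4W replicate 1 (0.0537). Pseudocounts of 0.1 (0.0619) or 5 (0.0609) and a fit of each time alone (0.069) also lost it, within a range of 0.0315 to 0.196. Tnfrsf1a, the main receptor of TNF, read 30.5, 30.0 and 26.7 on ND and 26.7, 24.3 and 35.3 on HFD at 4 weeks. The values at 16 weeks were 48.5, 35.8 and 40.6 on ND and 37.2, 53.9 and 53.9 on HFD. It overlapped at both times, with log2 fold changes of -0.03 (SE 0.19) and 0.20 (SE 0.19). Tnfrsf10b, Tnfrsf19 and Tnfrsf22 were called at neither time, with log2 fold changes of -0.36, -0.05 and -0.26 at 4 weeks and 0.58, 0.39 and 0.62 at 16 weeks.

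**Figure D2:**
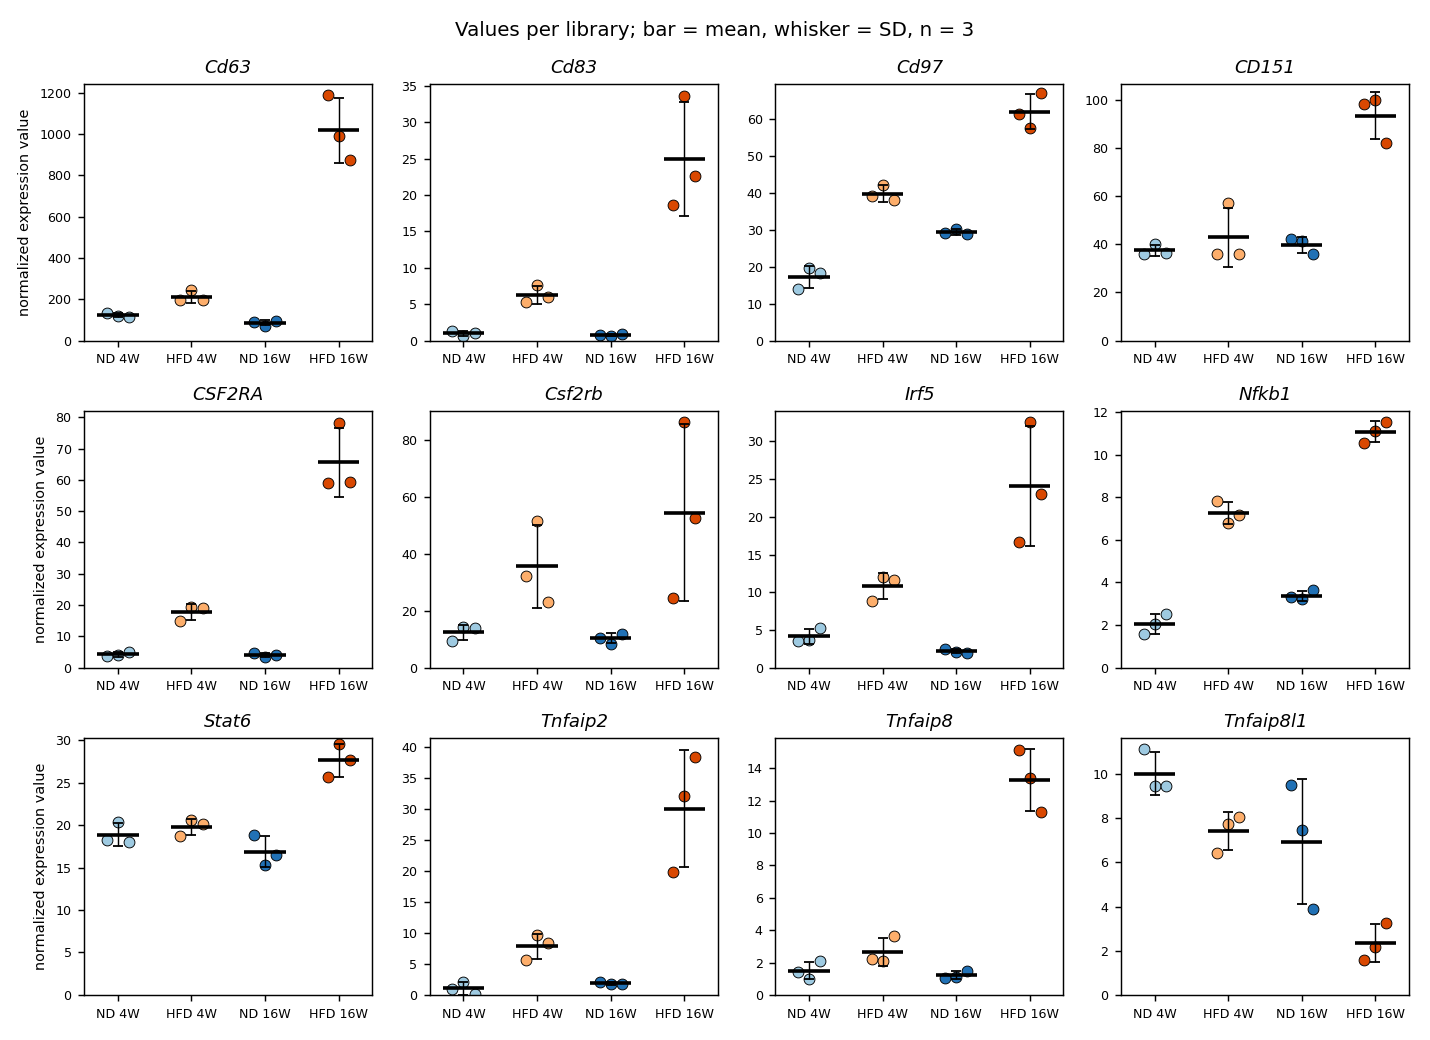
Normalized expression values of 12 genes in every library, a panel per gene with its own linear vertical axis starting at 0; points are libraries, horizontal bars the mean and whiskers the SD over 3 libraries. Cd97 and Nfkb1 show a similar step between diets at 4 and 16 weeks, whereas CD151 and Stat6 separate at 16 weeks alone and Tnfaip8l1 is lower on HFD.

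Of the 8 sensors and transcription factors, all tested, 2 were called higher at 4 weeks and 4 at 16 weeks, and 1 was called lower at 16 weeks. Irf5, a transcription factor of inflammatory macrophages that acts downstream of Toll-like receptors, read 3.55, 3.63 and 5.30 on ND and 8.91, 12.0 and 11.6 on HFD at 4 weeks. By 16 weeks the libraries gave 2.51, 2.13 and 2.00 on ND and 16.6, 32.5 and 23.1 on HFD. There was no overlap, and the log2 fold change was 1.21 (SE 0.23, adjusted p = 0.00629) at 4 weeks and 2.92 (SE 0.23, adjusted p = 5.89e-06) at 16 weeks. Another transcript named Irf5, kept out as the lower of the pair, was called higher as well, by 1.09 (adjusted p = 0.0144) and 2.19 (adjusted p = 6.74e-05). Nfkb1, which encodes the p105 precursor and p50 subunit of NF-kB, read 1.56, 2.06 and 2.50 on ND and 7.83, 6.80 and 7.18 on HFD at 4 weeks. After 16 weeks it read 3.31, 3.20 and 3.64 on ND and 10.6, 11.1 and 11.5 on HFD. The step between diets was 1.45 (SE 0.17, adjusted p = 0.000294) at 4 weeks and 1.46 (SE 0.17, adjusted p = 6.43e-05) at 16 weeks on the log2 scale, with tight replicates.

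Stat6, the transcription factor of IL-4 and IL-13 signalling, read 18.2, 20.4 and 18.0 on ND and 18.7, 20.6 and 20.1 on HFD at 4 weeks. Its values at 16 weeks were 18.8, 15.3 and 16.5 on ND and 25.7, 29.5 and 27.7 on HFD. Its libraries overlapped at 4 weeks and were apart at 16 weeks, by 0.68 (SE 0.12, adjusted p = 0.00127). TLR2, the Toll-like receptor of bacterial lipoproteins, was detected in 0 of 3 ND libraries at 4 weeks and in the HFD libraries at 1.86, 1.54 and 2.28. It was detected at 16 weeks in 2 of 3 ND libraries (1.70 and 0.650) and in the HFD libraries at 3.11, 8.11 and 10.2. It was called at 16 weeks (2.15, SE 0.42, adjusted p = 0.0021) and was just over the threshold at 4 weeks (adjusted p = 0.0507). STAT2, a factor of the type I interferon response, read 26.6, 28.6 and 22.6 on ND and 24.5, 21.8 and 23.5 on HFD at 4 weeks. At 16 weeks it read 21.8, 32.5 and 19.4 on ND and 15.5, 13.3 and 16.6 on HFD. It was called lower at 16 weeks (-0.64, SE 0.18, adjusted p = 0.0178), with no overlap. The call was lost without ND 16W replicate 2 (adjusted p = 0.0631), without HFD 16W replicate 2 (0.0665), or after median-ratio rescaling of the libraries (0.0642). It was also lost in a fit without trend (0.059) or of each time alone (0.0569), within a range of 0.00997 to 0.0665. STAT4, the factor of IL-12 signalling, was called at neither time, with log2 fold changes of 0.68 at 4 weeks and 0.37 at 16 weeks. That rescaling moved the median log2 fold change of all tested transcripts from -0.03 to 0.10 at 4 weeks and from -0.12 to 0.01 at 16 weeks.

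Of the 5 interferon-induced genes tested, Gbp5 was the only one called at either time. Gbp5, a guanylate-binding protein that promotes inflammasome assembly, was detected in 1 of 3 ND libraries at 4 weeks (1.35) and in the HFD libraries at 6.90, 4.14 and 5.61, a log2 fold change of 2.16 (SE 0.39, adjusted p = 0.0043). At 16 weeks it was detected in 0 of 3 ND libraries and in the HFD libraries at 2.10, 6.46 and 5.20 and was called (adjusted p = 0.000902), with no fold given. Its relative GBP6 read 3.35, 1.85 and 4.56 on ND and 11.6, 10.5 and 5.81 on HFD at 4 weeks, apart but not called (adjusted p = 0.116). At 16 weeks GBP6 read 1.44, 2.29 and 2.32 on ND and 1.29, 2.49 and 9.63 on HFD. Gbp4 overlapped at both times, with log2 fold changes of 0.24 (SE 0.34) and -0.52 (SE 0.34). GBP6 and Gbp4 are close copies assembled from the same cluster, so reads may be split between them.

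Isg15, the ubiquitin-like protein that interferons induce, read 3.47, 4.22 and 8.20 on ND and 5.76, 2.16 and 3.67 on HFD at 4 weeks. At 16 weeks the values were 2.71, 3.75 and 4.56 on ND and 1.70, 2.60 and 5.36 on HFD. Its diets overlapped throughout, with log2 fold changes of -0.37 (SE 0.39, adjusted p = 0.604) and -0.22 (SE 0.39, adjusted p = 0.687). Irf7, the master factor of type I interferon induction, read 6.77, 3.24 and 3.12 on HFD at 4 weeks against 1.58, 1.92 and 1.69 on ND, and 1.58, 2.24 and 4.72 against 1.66, 2.03 and 2.10 at 16 weeks. Its diets were apart at 4 weeks (0.91, SE 0.33, adjusted p = 0.0973) and overlapped at 16 weeks (0.31, SE 0.33). Cxcl10, the interferon-induced chemokine of T cells, read 11.1, 4.00 and 2.20 on HFD against 1.32, 1.58 and 1.06 on ND at 4 weeks, and 0.827, 1.46 and 3.10 against 1.15, 1.65 and 0.576 at 16 weeks. It showed the same order as Irf7, with HFD replicate 1 highest at 4 weeks and HFD replicate 3 highest at 16 weeks, and adjusted p-values of 0.0879 and 0.589. Ifitm2, an antiviral membrane protein, lay between 121 and 295 in all 12 libraries, with log2 fold changes of -0.63 (SE 0.22, adjusted p = 0.094) and -0.26 (SE 0.22, adjusted p = 0.391).

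Of the 7 MHC genes, 1 was called higher and 3 lower at 4 weeks and 3 were called lower at 16 weeks, the lower calls all in genes nearly confined to ND libraries. HLA-DRB1, the name given to an MHC class II beta chain, read 47.8, 44.1 and 57.9 on ND and 178, 381 and 145 on HFD at 4 weeks. The values at 16 weeks were 70.4, 92.2 and 75.9 on ND and 35.2, 148 and 267 on HFD. The diets were apart at 4 weeks (2.09, SE 0.58, adjusted p = 0.0382) and overlapped at 16 weeks (0.50, SE 0.58, adjusted p = 0.529), where HFD replicate 1 was below every ND library. The HLA-DRB1 call at 4 weeks was lost in 10 of 24 alternatives, with an adjusted p of 0.0034 to 0.129 over them. It was 0.0963, 0.0983 and 0.0761 without ND 4W replicates 1, 2 and 3, and 0.0547, 0.129 and 0.0532 without HFD 4W replicates 1, 2 and 3. It was 0.0526, 0.0524 and 0.0533 without ND 16W replicates 1, 2 and 3. Without HFD 16W replicate 1 the log2 fold change at 16 weeks became 1.32 with an adjusted p of 0.0233, which passed the threshold. The class I name H2-Q10 was called at neither time, with log2 fold changes of 0.47 (SE 0.48) at 4 weeks and -0.37 (SE 0.48) at 16 weeks. MHC genes of the same kind can be close copies, so the assembly may split or merge such copies, and these values are uncertain as to the copy.

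The order of the HFD libraries in interferon and MHC genes is given as a description. Detected in all 12 libraries were 9 such genes, Cxcl10, Irf7, STAT2, GBP6, Gbp4, Ifitm2, Isg15, H2-Q10 and HLA-DRB1, a grouping made after their values were seen, so the counts support no pattern. HFD replicate 3 of 16 weeks was the highest of its group in 8 of the 9 and HFD replicate 1 the lowest in 7. Among all transcripts detected in every library those shares were 32.6% and 28.6%, and among the 30 other leukocyte genes drawn in the heatmap 20% and 63.3%. At 4 weeks HFD replicate 1 was the highest in 6 of the 9 and HFD replicate 3 the lowest in 6, against 39.2% and 32.2% of all such transcripts. These are descriptions of 3 libraries a group, and their relation to the sets of detected transcripts was not tested.

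**Figure D3:**
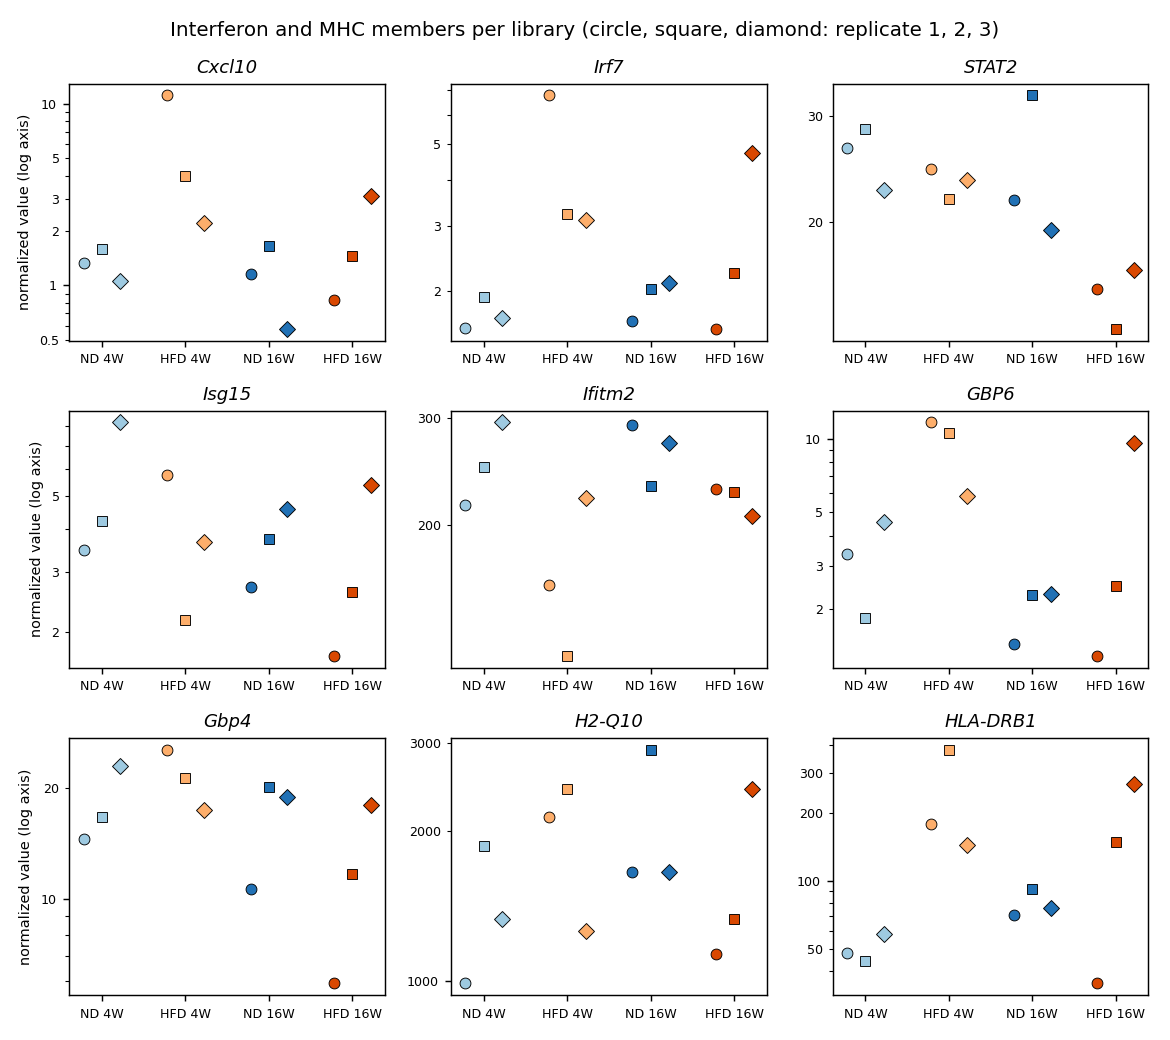
Normalized values of the 9 interferon and MHC genes per library on logarithmic vertical axes, a panel per gene; the horizontal axis gives the 4 groups, and circles, squares and diamonds mark replicates 1, 2 and 3. At 16 weeks on HFD the circle is the lowest point in 7 of the 9 panels and the diamond the highest in 8, for example 35.2 and 267 for HLA-DRB1.

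Detection itself divided the genes. Of the 79, 41 (51.9%) were detected in all 12 libraries, against 58.3% of all named transcripts, and 17 in at most 6. Detected in ND libraries only were 5 genes (6.33%, against 3.58% of all named transcripts): CD2, an adhesion receptor of T and natural killer cells, H2-DMa, a chaperone chain of MHC class II loading, the cytokine genes IL16 and IL32, and the cytokine receptor gene IL7R. IL7R, the receptor chain of the lymphocyte survival factor IL-7, read 4.72, 6.36 and 8.61 on ND at 4 weeks and 4.56, 2.57 and 2.62 at 16 weeks, and was detected in 0 of 6 HFD libraries. IL32, a cytokine known from humans, read 3.92, 3.05 and 4.92 at 4 weeks and 4.48, 2.02 and 2.12 at 16 weeks on ND. Both were called lower at both times, with adjusted p-values of 0.000136 and 0.000322 for IL7R and of 0.000927 and 0.000844 for IL32. IL16, a chemoattractant of CD4+ cells, read 6.03, 5.22 and 6.11 on ND at 4 weeks, where it was called (adjusted p = 0.00107), and 1.37, not detected and 2.17 at 16 weeks, where it was not (adjusted p = 0.069). H2-DMa read 1.63, not detected and 1.54 at 4 weeks and 1.35, 9.25 and 7.39 at 16 weeks on ND and was called lower at 16 weeks alone (adjusted p = 0.00369). CD2 read 4.80, 1.32 and 3.07 at 4 weeks and 6.19, not detected and 0.664 at 16 weeks on ND and was called at neither time. These 5 genes reached the mean of at least 1 through their ND libraries alone. Calls among them therefore restate the pattern of detection and are no separate support.

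HLA-B, HLA-E and HLA-DPA1 were close to that pattern. They too passed the filter through their ND libraries, so their calls likewise restate detection. HLA-B read 13.8, 11.1 and 13.3 on ND at 4 weeks and 12.6, 4.01 and 3.67 at 16 weeks, and was detected on HFD only in the libraries numbered 1, at 0.329 and 0.127. HLA-E read 14.8, 10.8 and 18.9 on ND at 4 weeks and 15.6, 4.39 and 5.69 at 16 weeks, and on HFD 0.178 and 1.67 in the libraries numbered 1 alone. The log2 fold changes were -3.64 (SE 0.37, adjusted p = 0.000134) and -2.71 (SE 0.37, adjusted p = 0.000213) for HLA-B and -3.87 (SE 0.46, adjusted p = 0.000412) and -2.60 (SE 0.46, adjusted p = 0.00121) for HLA-E. These sizes rest on the pseudocount: over the alternatives they ranged from -6.30 to -1.79 and from -5.47 to -1.14 for HLA-B, and from -6.69 to -1.95 and from -4.83 to -1.21 for HLA-E. HLA-DPA1, an MHC class II alpha chain by its name, read 2.73, 3.35 and 3.88 on ND at 4 weeks, where it was detected in 0 of 3 HFD libraries and called (adjusted p = 0.0208). It read 3.69 in ND replicate 1 alone at 16 weeks, where HFD replicate 1 read 0.0367. The HLA-DPA1 call at 4 weeks was lost without ND 4W replicate 1 (adjusted p = 0.0502), HFD 4W replicate 2 (0.0556) or HFD 4W replicate 3 (0.0616). It was also lost without both HFD libraries numbered 1 (0.0532), within a range of 0.013 to 0.0616. None of these MHC names with lower calls, nor IL32, is a symbol of the gerbil annotation, whereas CD2, IL16 and IL7R are. Among all 135 named transcripts detected in ND libraries only, 76.3% had a name outside that annotation and 80.7% a name all in capitals, as human genes are written, against 20.1% and 27.4% of all named transcripts. Whether the transcripts behind these lower calls come from the gerbils' own genes was not tested.

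In the other direction, the chemokine receptors Cxcr2 and Cxcr6 were detected in all 6 HFD libraries and in 0 of 6 ND libraries. Found on HFD alone in libraries of both sets were thus 2 of the 79 (2.53%), against 3.05% of all named transcripts. Cxcr2, the receptor that draws neutrophils, read 0.472, 1.28 and 0.664 on HFD at 4 weeks and 0.226, 1.67 and 5.86 at 16 weeks. Cxcr6, a receptor of liver-homing T and natural killer T cells, read 2.59, 2.25 and 0.414 at 4 weeks and 0.295, 2.52 and 1.41 at 16 weeks. CCR1, Cd9, LCP1 and LCP17 were detected in the 4 HFD libraries numbered 2 and 3 and in no other, and CD163, the haemoglobin scavenger receptor of macrophages, in the 2 HFD libraries numbered 1 alone, at 6.41 and 4.39. LCP1, which encodes the leukocyte actin-bundling protein L-plastin, read 11.3 and 8.51 at 4 weeks and 5.45 and 6.13 at 16 weeks in the libraries where it was detected. CCR1 read 3.18 and 1.71, and Cd9 2.35 and 1.63, at 4 weeks. These 5 genes were grouped by that pattern of detection, so their split by library number is no separate result. Those found in libraries numbered 2 and 3 alone were 5.06% of the 79, against 5.26% of all named transcripts. The share found in libraries numbered 1 alone was 1.27%, against 2.73%.

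The remaining untested genes had low means. Itga11, a collagen-binding integrin chain, was detected everywhere, at 0.343 to 0.782 in the ND and HFD libraries of 4 weeks, at 0.492 to 0.566 on ND and at 1.45, 1.91 and 1.56 on HFD at 16 weeks. Itgbl1, an integrin beta-like protein, read 0.542, 0.467 and 0.559 on ND and 1.64, 1.99 and 1.52 on HFD at 16 weeks. Il1r2, the decoy receptor of IL-1, was detected in 2 of 3 ND libraries at 16 weeks (0.492 and 0.547) and in all HFD libraries at 0.961, 2.52 and 1.75. Each of these lay higher in all 3 HFD libraries of 16 weeks than in the ND libraries of that time. Il33, an alarmin of stressed cells, was detected in 3 of 6 ND libraries, at 1.73, 3.17 and 5.80, and in 1 of 6 HFD libraries, at 0.103. Ccl28, Cxcl13, Il12rb1, Cd27, Tnfaip6, Tnfrsf11b, Tnfsf9, IFI6 and Ifitm10 stayed at or below 3.13 in every library. Of tested genes in this band, Cd52, STAT4 and Tnfrsf22 were each missing from some libraries and were not called.

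**Figure D4:**
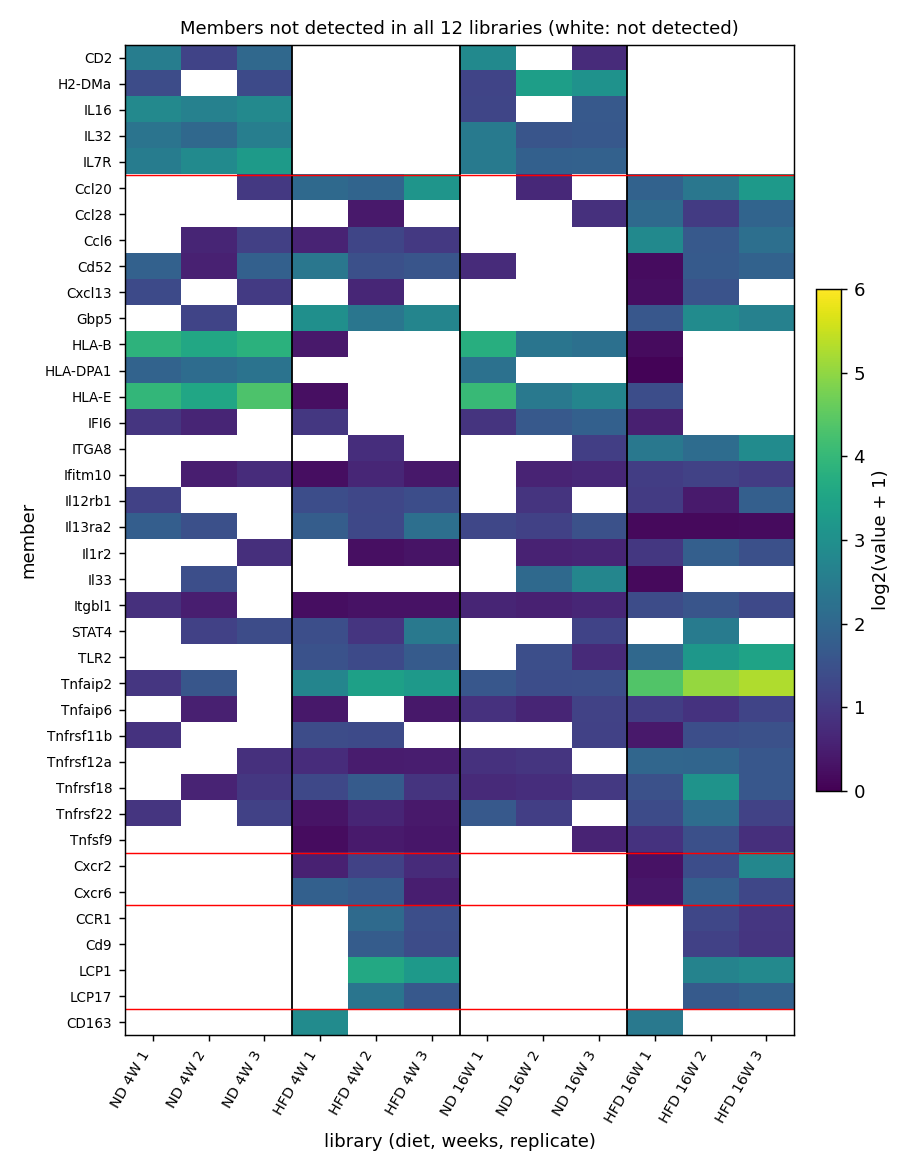
Levels of the 38 genes not detected in all 12 libraries, as log2(value + 1), with white cells for libraries at their lowest value; red lines divide patterns of detection. The 5 genes at the top are found in ND libraries only, and the bottom 5 split the HFD libraries by replicate number, with CD163 alone in those numbered 1.

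The diet contrast differed between times for 7 of the 60 tested genes, all with a larger value at 16 weeks (11.7%), against 10.1% of all transcripts, 5.5% in that direction and 4.61% in the other. Among transcripts detected in all 12 libraries, to which the 7 belong, the shares were 9.95% and 8.94%. The difference of the log2 fold changes was 2.77 (SE 0.26, adjusted p = 0.000333) for Cd63, 2.14 (SE 0.34, adjusted p = 0.00403) for Tnfaip8, 1.98 (SE 0.34, adjusted p = 0.0055) for Cd83. It was 1.87 (SE 0.25, adjusted p = 0.00192) for CSF2RA and 1.71 (SE 0.33, adjusted p = 0.00903) for Irf5. These 5 passed under every alternative that gave a value. CD151 (1.05, SE 0.25, adjusted p = 0.0223) and Stat6 (0.62, SE 0.17, adjusted p = 0.044) did not: CD151 was lost in 7 of 23 alternatives, with an adjusted p up to 0.106, and Stat6 in 16 of 23, up to 0.196. For CD151 the adjusted p was 0.0541 and 0.056 without HFD 4W replicates 1 and 3, 0.0557 without ND 16W replicate 3, and 0.0515 and 0.0526 without HFD 16W replicates 1 and 2. For Stat6 it was over the threshold without any of the 12 libraries but ND 16W replicate 1, at 0.0721, 0.0789 and 0.0657 without ND 4W replicates 1, 2 and 3, and 0.097, 0.0706 and 0.0823 without the HFD 4W replicates. It was 0.0983 and 0.0905 without ND 16W replicates 2 and 3, and 0.0568, 0.0933 and 0.0722 without the HFD 16W replicates. Ccl6 (adjusted p = 0.0506), ITGA8 (adjusted p = 0.0538) and Cd47 (0.99, adjusted p = 0.0592) were just over the threshold. Calls in the lower direction arose under alternatives alone. They were of Il13ra2 with values summed by name (-1.69, adjusted p = 0.0174) and of H2-DMa without ND 16W replicate 1 (-2.29, adjusted p = 0.0397).

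Within HFD, 20 of the 60 genes differed between 16 and 4 weeks, 17 higher and 3 lower (33.3%), against 17% of all transcripts, 9.19% higher and 7.78% lower. The 10 calls that held under every alternative that gave a value were of Cd63 (2.25), ITGA8 (2.21), Tnfaip8 (1.98), CSF2RA (1.82), Cd83 (1.81), Cxcl12 (1.71), CD151 (1.13), Cd47 (1.09), Irf5 (1.04) and, lower at 16 weeks, Tnfaip8l1 (-1.36), as log2 fold changes. ITGA8 had a value in 20 of the 23 alternatives and Tnfaip8 in 22. Cxcl12 read 24.5, 23.6 and 25.5 at 4 weeks and 49.6, 145 and 77.5 at 16 weeks on HFD, and 21.0, 27.8 and 23.4 and then 40.8, 63.7 and 52.0 on ND. The libraries of the 2 times did not overlap on either diet, though the gene was not called on ND (1.07, SE 0.31, adjusted p = 0.113). Cd97 (0.62) and Tnfaip2 (1.78) held without any 1 library. Cd97 was lost without both HFD libraries numbered 1 (adjusted p = 0.0648) or without the trend (0.0612), and Tnfaip2 at a pseudocount of 0.1 (0.0717). The other 8 calls, of Ccl6, Il13ra2, Tnfrsf12a, Tnfrsf1a, Nfkb1, STAT2, Stat6 and TLR2, were each lost without at least 1 library, HFD 4W replicate 3 among them for 7 of the 8. Their adjusted p without that library was 0.0822, 0.0857, 0.0773, 0.104, 0.105, 0.0587 and 0.0742 for Ccl6, Il13ra2, Tnfrsf12a, Nfkb1, STAT2, Stat6 and TLR2. Ccl6 was also lost without HFD 4W replicate 1 (0.114), HFD 4W replicate 2 (0.0535) or HFD 16W replicate 3 (0.0937), and Tnfrsf12a without HFD 4W replicate 2 (0.0778). Il13ra2 was also lost without HFD 4W replicate 1 (0.0573) or HFD 16W replicates 1, 2 or 3 (0.0608, 0.0664 and 0.0547), and Stat6 without HFD 4W replicates 1 or 2 (0.0773 and 0.0501) or HFD 16W replicates 2 or 3 (0.0782 and 0.0558). For Nfkb1 the further values were 0.0689 and 0.123 without HFD 4W replicates 1 and 2, 0.0529 without ND 16W replicate 3, and 0.0892, 0.115 and 0.116 without HFD 16W replicates 1, 2 and 3. For STAT2 they were 0.113 and 0.0764 without HFD 4W replicates 1 and 2, 0.0583 without ND 4W replicate 1, 0.0511 without ND 16W replicate 1, and 0.0947, 0.15 and 0.06 without HFD 16W replicates 1, 2 and 3. TLR2 gave 0.0935 and 0.114 without HFD 4W replicates 1 and 2, 0.0529 and 0.0534 without ND 4W replicates 1 and 3, 0.0552 without ND 16W replicate 3, and 0.161 and 0.167 without HFD 16W replicates 2 and 3. Tnfrsf1a was lost without HFD 4W replicate 1 (0.0628) or 2 (0.0778) or HFD 16W replicate 2 (0.0775) or 3 (0.0706). Libraries with the same number on HFD deviated together, so a fit with a replicate block is given beside this contrast. That block took a common effect per number for both diets, although numbers paired neither the diets nor the times on ND. With it Ccl6 (adjusted p = 0.064), Nfkb1 (0.0629) and STAT2 (0.0641) were no longer called.

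On ND, 1 of the 60 genes differed between times, against 0.379% of all transcripts. This was Cd97, higher at 16 weeks by 0.74 (SE 0.14, adjusted p = 0.049). The call was lost in 16 of 23 alternatives (adjusted p 0.0196 to 0.15), and of the 12 libraries only ND 4W replicate 2 could be left out without losing it. Without ND 4W replicates 1 and 3 the adjusted p was 0.134 and 0.109, without ND 16W replicates 1, 2 and 3 it was 0.0602, 0.15 and 0.134, and without an HFD library it lay between 0.0531 and 0.0665.

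**Figure D5:**
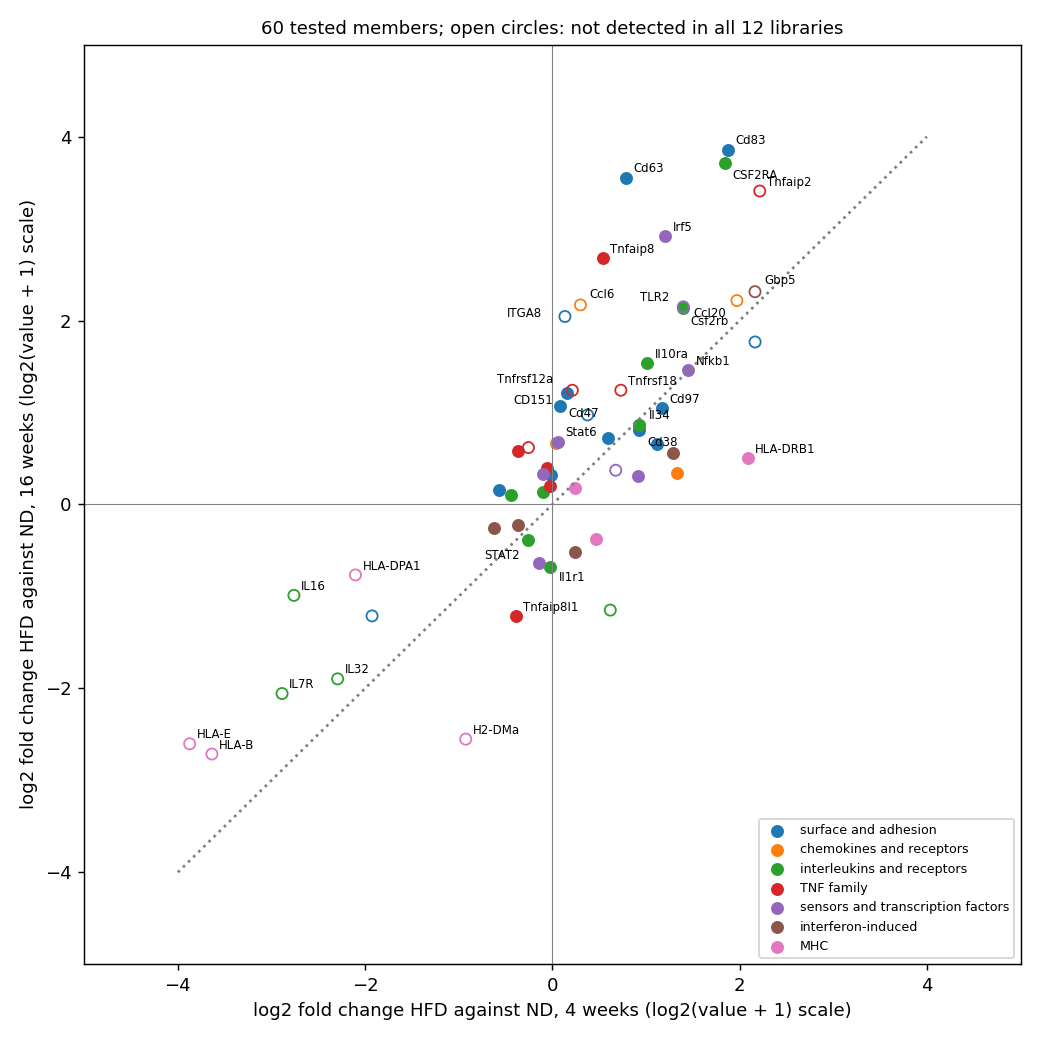
Log2 fold changes of HFD against ND at 4 weeks (horizontal) and 16 weeks (vertical) for the 60 tested genes, coloured by role, with open circles for genes not detected in all 12 libraries and a dotted line of equal change. Cd63, Cd83, CSF2RA, Tnfaip8 and Irf5 lie well above the line, Nfkb1 and Cd97 near it and HLA-DRB1 below it.

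Other genes of the same pathways were read from lists of names outside the pattern. Of 39 interferon-induced names 7 were measured, and 1 was called higher and 1 lower at 4 weeks and 2 higher and 3 lower at 16 weeks. Sp100, a nuclear body protein, lay between 1.70 and 2.08 on ND and between 8.50 and 10.9 on HFD at 4 weeks, and between 3.56 and 4.20 on ND and 10.7 and 16.1 on HFD at 16 weeks. Its log2 fold change was 1.89 and 1.60 (SE 0.18 each), while Parp9 (-0.82, SE 0.21) and Trim25 (-0.92, SE 0.22) were lower on HFD at 16 weeks. PSMB8 was detected in ND libraries only and was called lower at both times (adjusted p = 0.00139 and 0.00285). Epsti1 was called higher at 16 weeks (1.19, SE 0.33, adjusted p = 0.0144). Of 25 JAK, cytokine receptor and SOCS names 6 were measured, with 2 called higher at 4 weeks, 5 at 16 weeks and 0 lower. All 6 were detected in every library, where 7.23% and 22.2% of transcripts were called higher. Ifngr1, the ligand-binding chain of the interferon-gamma receptor, read 9.43 to 11.5 on ND and 15.7 to 16.5 on HFD at 4 weeks and 10.5 to 12.4 and 38.8 to 61.5 at 16 weeks (0.61, SE 0.17, and 1.89, SE 0.17). Jak1, the kinase bound to many of these receptors, was called at 16 weeks (1.22, SE 0.13, adjusted p = 3.36e-05), as were Jak3, Socs3 and Pias3.

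Of 32 Fc receptor, ITAM and integrin signalling names 6 were measured, with 2 called higher at 4 weeks and 3 at 16 weeks. Ncf1 and Cyba, subunits of the phagocyte NADPH oxidase, were called at both times (1.90 and 3.54, SE 0.32 each, and 1.52 and 2.77, SE 0.26 each), and Blnk, a signalling adaptor, at 16 weeks (2.74, SE 0.28). Of 34 NF-kB and Toll-like signalling names 5 were measured, and Tbk1, a kinase of interferon induction, was called lower at 4 weeks (adjusted p = 0.00375) and Card9, an adaptor of myeloid cells, higher at 16 weeks (1.67, SE 0.30). Of 21 antigen processing names 6 were measured. Ciita, the activator of MHC class II genes, was detected in 0 of 3 ND and in all 3 HFD libraries at 4 weeks (1.80 to 2.83) and called there (adjusted p = 0.0369). Calr, a chaperone of class I assembly, was called at 16 weeks (1.17, SE 0.21). Of 25 complement and phagocytosis names 10 were measured and 7 tested, and 0 were called at either time.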

How the data were processed

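Poly(A) RNA of liver was sequenced on a HiSeq instrument from total RNA with an integrity number above 7, per the labels' protocols. Trinity 2.4.0 assembled the reads into transcripts, and the longest transcript of each cluster was kept, per the same protocols; the submitters' processing notes also name Salmon and edgeR, without version or role. The deposited values are a signal the authors normalized across libraries; no header or label gives the unit before that step, so depth and counting intervals are unknown.

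The genes and lists were chosen with earlier results of these data known. Names were matched without regard to case for doubled names, which joins ITGA8 and Itga8. Values as log2(value + 1) were fitted with limma 3.58.1 in R 4.3.3 (empirical Bayes with trend, 8 residual degrees of freedom) over the 12 libraries and the 9487 transcripts with a mean of at least 1, with Benjamini-Hochberg adjustment over them and a threshold of 0.05, two-sided. The script was tested on simulated data. Libraries of 8 weeks were not used. Values are printed per library for each gene called in a diet contrast, and other genes by their ranges and counts.

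Replicate numbers did not pair the diets (correlation of same-numbered deviations -0.0244 to -2.29e-05 over 6 pairs). On HFD same-numbered deviations correlated between the times (0.397, 0.18 and 0.117), so the block is given beside that contrast. On ND they did not (0.0357, 0.021 and -0.00873), yet the block is shared by both diets. Differently numbered HFD libraries were not compared between times, so pairing and the library sets cannot be told apart. Alternatives were another pseudocount, other filters, median-ratio rescaling, sums by name, no trend, a fit of each time alone, a replicate block, terms or omissions for the HFD libraries numbered 1, and leaving out each library. Of the 79 genes, 2 enter the counts but are not reported here by name. No sequences are shown, since no sequence table was used here.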

Additional observations from a re-analysis of the deposited data

Results flagged for a closer look

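For 7 of the 60 tested genes (11.7%, beside 10.1% of all transcripts) the effect of diet at 16 weeks differed from that at 4 weeks by a test of the difference itself (limma, adjusted over all transcripts tested). As log2 differences between the fold changes, 16 minus 4 weeks, they were 2.77 for Cd63, 2.14 for Tnfaip8, 1.98 for Cd83, 1.87 for CSF2RA, 1.71 for Irf5, 1.05 for CD151 and 0.62 for Stat6. CD151 was no longer called in 7 of 23 alternatives and Stat6 in 16 of 23, the replicate block among them (adjusted p = 0.0749). In each gene, all 3 HFD libraries of 16 weeks lay above all 3 ND libraries of that time. Cd63, Cd83, CSF2RA and Irf5 were also called at 4 weeks, and Tnfaip8, CD151 and Stat6 were not. The marker Cd68, outside the chosen names, had a difference of 1.98 (adjusted p = 0.00342), and the part of cell numbers in these differences was not tested.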

How the results depend on the processing

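No count of calls or log2 fold change of a called gene reversed under any alternative. Leaving out 1 library gave 13 to 21 calls at 4 weeks in place of 20, 25 to 33 at 16 weeks in place of 30, 5 to 9 for the difference between times in place of 7, 13 to 20 over time on HFD in place of 20 and 0 to 2 on ND in place of 1. The lowest count at 4 weeks came without ND 4W replicate 1, and that over time on HFD without HFD 4W replicates 1 or 2 or HFD 16W replicate 3. With a mean of at least 5 as filter, which left 27 genes tested, 12 were called at 4 weeks, 16 at 16 weeks and 2 over time on ND. Over transcripts detected in all 12 libraries, 19 were called at 16 weeks and 2 over time on ND. A pseudocount of 5 gave 2 over time on ND, and 0 were called there with no filter, with a replicate block, without the HFD libraries numbered 1, with a term for the library set or without the trend. Without the HFD libraries numbered 1 at both times, 13 were called over time on HFD, and 20 and 34 by diet at 4 and 16 weeks. With the replicate block the counts were 19, 30, 6, 17 and 0 in the order above; at 4 weeks it lost Cd38 (adjusted p = 0.0546), and for the difference between times Stat6 (0.0749). Calls kept in every alternative with a value numbered 12 of 20 at 4 weeks, 24 of 30 at 16 weeks, 5 of 7, 10 of 20 and 0 of 1. The fitted value of H2-DMa at 16 weeks moved from -2.55 to -3.21 without ND 16W replicate 1, against HFD libraries at 0. Unknown depth limits all low values, and a fold near the lowest value depends on the pseudocount.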

Other observations

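Of the 7 other transcripts that share a name with a chosen gene, some followed it and some did not. The other transcript named Cd63 was detected in all 6 ND libraries (1.51 to 2.47 at 4 weeks and 2.00 to 11.3 at 16 weeks) and on HFD only in the libraries numbered 1, at 0.148 and 0.0333. It was called lower at 16 weeks (-2.92, adjusted p = 0.000727), whereas the Cd63 transcript with the higher mean was called higher. The other transcript named H2-Q10 read 504 to 572 on ND and 756 to 1134 on HFD at 4 weeks, and 693 to 792 on ND and 398 to 572 on HFD at 16 weeks. Its diets were apart at both times in opposite directions, with log2 fold changes of 0.80 (adjusted p = 0.0616) and -0.60 (adjusted p = 0.0858) and a difference between times of -1.40 (adjusted p = 0.0292). The other transcript named HLA-B was detected in ND libraries only, and that named Il13ra2 lay at 0.0872 to 0.169 on HFD at 16 weeks against 0.604 to 0.846 on ND. The rule on names sets the 7, and those described were chosen after their values were seen.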
